A study of Rattus norvegicus with 9 samples.

Results

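The 9 genes described here encode the core of the PI3K/AKT/mTOR cascade, and they were chosen by name as the pathway that the study proposed: the class I PI3K catalytic subunits Pik3ca, Pik3cb, Pik3cd and Pik3cg, the regulatory subunit Pik3r1, the kinases Akt1 and Akt2, the kinase Mtor, and Rps6kb1, which encodes the S6 kinase S6K1. All 9 were found among the 17156 genes of the deposited tables and all 9 had enough counts to be tested in every comparison. Their mRNA was measured by RNA-seq in livers of male Sprague-Dawley rats, with 3 rats in each of 3 groups. The normal control group received saline. The model group was given CCl4, a hepatotoxin that is used to produce liver fibrosis, by mouth as a 50% oil solution at 2 ml/kg, 2 times a week for 9 weeks. The TA group received the same CCl4 and then tormentic acid (TA), a triterpenoid, at 3 mg/kg for 6 weeks. What the model rats were given during those weeks is not stated in the sources used here. All rats had been fasted for 12 h, and whole liver was sequenced, so that hepatocytes and the other cells of the organ were read together. The values are mRNA levels and carry no information on the protein or its phosphorylation.

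Class I PI3K makes the membrane lipid PIP3 after a receptor has been engaged, PIP3 recruits and activates AKT, and AKT in turn releases mTOR complex 1 from inhibition, which phosphorylates S6K1 and favours protein synthesis and growth. A catalytic subunit works bound to a regulatory subunit. Pik3ca and Pik3cb are expressed in most cell types, whereas Pik3cd and Pik3cg are known mainly from leukocytes, and in liver the pathway carries the response of hepatocytes to insulin.

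Total counts ranged from 13156735 to 18090405. The first model rat stood apart. Its 50 most abundant genes took 27.9% of the counts, against 40.4% to 45.7% in the other 8 livers, its TMM normalization factor was 1.70 against 0.816 to 1.16, and Alb, the albumin gene of hepatocytes, reached 20450 CPM there against 56800 to 118700 CPM elsewhere. All 12 hepatocyte markers listed were measured, and 0 of 12 met the thresholds used by the study, an unadjusted p under 0.05 and a change beyond 1 on the log2 scale, in Model VS Normal, with a median log2 fold change of -0.84 (2 lower and -0.44 without the first model rat), whereas 6 of 6 biliary markers were higher there with and without that rat. Levels between livers are given as CPM after TMM normalization, that is, counts scaled to a common effective library size. Levels between genes are given in FPKM, which takes gene length into account and these are read within a group or a liver. Where FPKM are set side by side between livers they were divided by the TMM factor and are called TMM-scaled.

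In the normal control group the AKT genes were the most abundant of the 9 per unit length. Akt1 stood at 25.6 ± 4.26 FPKM (SD, n = 3) and Akt2, the isoform best known for insulin action in liver, at 16.7 ± 4.74 FPKM, and the ranges of these neighbours did not overlap. Rps6kb1 (7.44 ± 1.04 FPKM) and Pik3r1 (7.10 ± 2.45 FPKM) came next and overlapped each other. Pik3ca, at 3.71 ± 0.249 FPKM, lay above Mtor at 3.11 ± 0.231 FPKM without overlap, while Mtor overlapped Pik3cd (2.84 ± 0.977 FPKM) and Pik3cd overlapped Pik3cb (1.70 ± 0.656 FPKM). Pik3cg was the lowest at 0.427 ± 0.109 FPKM, below every value of Pik3cb. The order was led by Akt1 and Akt2 in all 3 groups. In the model group Pik3cd came next at 11.8 ± 8.81 FPKM, overlapping both Akt2 above it and Rps6kb1 below it, and in the TA group it stood at 4.11 ± 0.501 FPKM, below Pik3r1 and Rps6kb1.

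The sequence before the start of a gene is printed for Pik3cg, one of the leukocyte isoforms that stood higher in the model livers, and for Mtor, which showed no such shift, since they differ in the density of CpG dinucleotides. The bases come from RefSeq on assembly GRCr8, end just before the outermost start of each gene, and run 5′ to 3′ on the gene's strand with CpG in capitals. Pik3cg lies on the minus strand and its stretch is chr6:54529564-54529759, and Mtor lies on the plus strand with chr5:164167735-164167984.
Pik3cg: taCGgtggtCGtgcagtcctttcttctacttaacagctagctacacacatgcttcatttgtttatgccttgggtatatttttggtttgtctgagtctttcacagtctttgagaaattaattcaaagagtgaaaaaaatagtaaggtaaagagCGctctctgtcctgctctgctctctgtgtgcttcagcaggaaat
Mtor: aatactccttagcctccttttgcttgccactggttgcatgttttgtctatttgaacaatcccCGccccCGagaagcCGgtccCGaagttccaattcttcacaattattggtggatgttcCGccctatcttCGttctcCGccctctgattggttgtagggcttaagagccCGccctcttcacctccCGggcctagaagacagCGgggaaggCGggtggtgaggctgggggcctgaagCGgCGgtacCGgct
The Pik3cg stretch of 196 bases holds 3 CpG and the Mtor stretch of 250 bases holds 14. In the RefSeq windows of 300 bases, which run from 250 bases before to 50 bases after the listed start, Pik3cg had 3 CpG and a GC content of 39.7%, against 21 CpG and 60% for Mtor, 24 CpG and 61% for Rps6kb1, and 31 CpG and 75.3% for Pik3r1. The median of 33469 rat windows was 7 CpG and 51.7%. The listed starts of Akt1, Akt2, Pik3ca and Pik3cd lay between 2521 and 43656 bases inside the gene, so their windows are not set beside these, and Pik3cb was not matched. The motif GAGGAAG, which contains the GGAA core of ETS factors such as PU.1, was searched on both strands of the 8 matched windows. It was found in those of Pik3cg and Pik3r1 and in 12.4% of all rat windows. The match of Pik3cg lies outside the stretch printed above. For Akt1, Akt2, Pik3ca and Pik3cd the sequence before the outermost start of the gene was not searched.

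Model VS Normal asked how the expression of the pathway differed between livers with CCl4-induced fibrosis and normal livers. The leukocyte isoforms Pik3cd and Pik3cg were higher in every model liver than in any normal liver, by a fitted 1.31 and 1.43 on the log2 scale. The other 7 members lay between -0.41 and 0.55, and their groups overlapped. None of the 9 passed edgeR's quasi-likelihood test at an adjusted p under 0.05, a threshold that 7.87% of the 12730 genes tested passed. At an unadjusted p under 0.05 there were 2 of 9, against 28.9% of all genes. By the thresholds of the study the count was also 2 of 9, against 22.1% of all genes in either direction and 16.6% of all genes higher in the model. Groups without overlap were seen for 2 of 9 members and for 38.2% of all genes. The median log2 fold change was -0.13 over the 9 members and 0.02 over all genes tested. DESeq2 and limma voom with sample quality weights, run as alternatives, each passed 1 of 9 members at an adjusted p under 0.05, Pik3cd, against 20.8% of all genes in DESeq2 and 27% in limma voom.

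**Figure D1:**
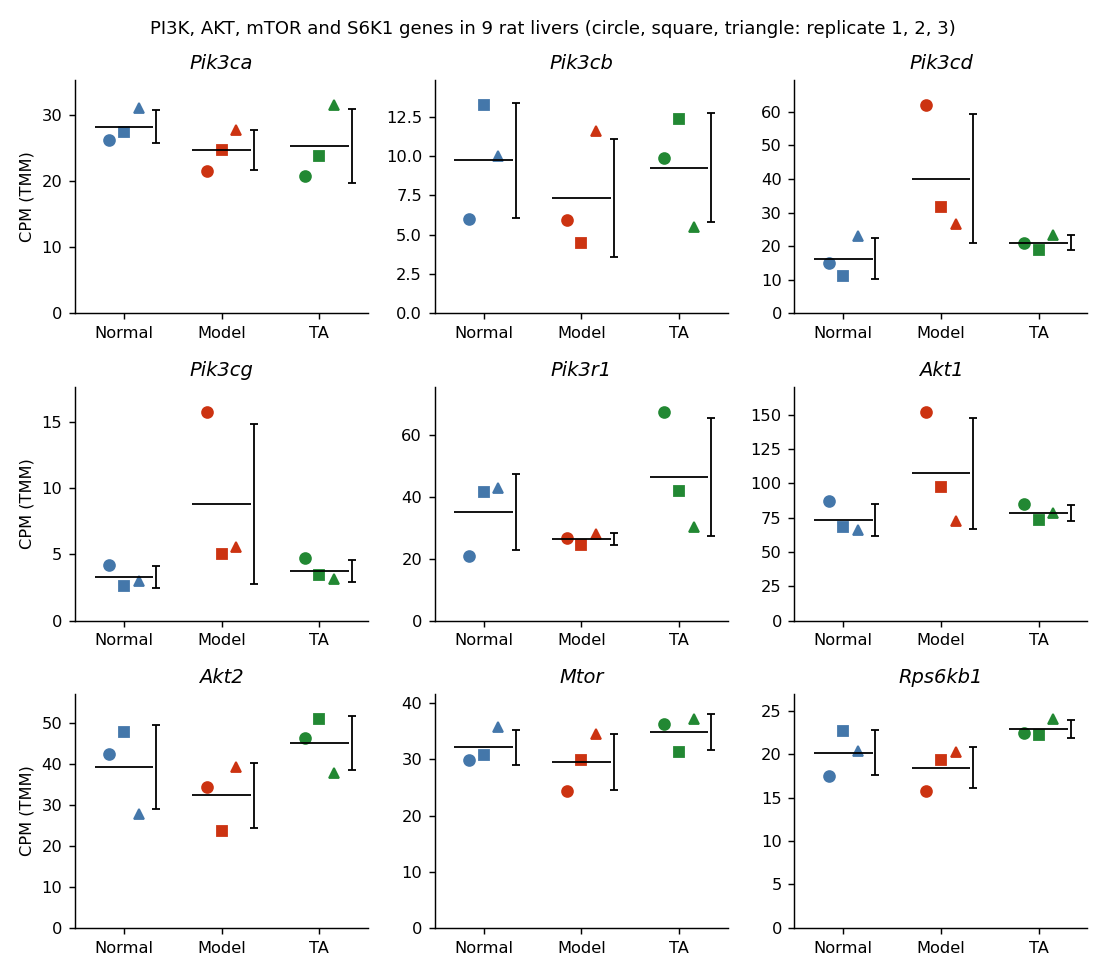
Level of each of the 9 genes (CPM after TMM normalization, linear axes from 0) in the 3 normal control, 3 model and 3 TA livers. Circles, squares and triangles are replicates 1, 2 and 3, horizontal lines are group means and the bars beside them span ± 1 SD. The first model rat is the highest liver for Pik3cd at 62.1, Pik3cg at 15.8 and Akt1 at 152 CPM, and the groups of Mtor overlap.

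Pik3cd encodes p110δ, which signals downstream of antigen and cytokine receptors. Its level was 14.9, 11.1 and 22.9 CPM in the normal livers, 62.1, 31.7 and 26.5 CPM in the model livers and 21.0, 18.9 and 23.2 CPM in the TA livers. The model livers were the 3 highest, and the TA livers lay within or just above the normal range. The log2 fold change in Model VS Normal was 1.31 (SE 0.402, 95% interval 0.38 to 2.23, edgeR adjusted p = 0.083). Without the first model rat it was 0.83, with an edgeR adjusted p of 0.143. It passed the adjusted threshold with DESeq2 (adjusted p = 0.0295) and with limma voom (adjusted p = 0.0107), and over all 15 alternatives the log2 fold change ran from 0.83 to 2.06 and the adjusted p from 0.0107 to 0.24.

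Pik3cg encodes p110γ, the isoform that answers G protein-coupled receptors such as those of chemokines. It was read at 4.24, 2.64 and 3.02 CPM in the normal livers, 15.8, 5.07 and 5.59 CPM in the model livers and 4.70, 3.47 and 3.13 CPM in the TA livers. The first model rat was far above all others, and the other model rats were only just above the highest normal and TA livers. These values rest on few reads, 351 counts in that rat against 36 to 79 counts elsewhere. The log2 fold change in Model VS Normal was 1.43 (SE 0.510, 95% interval 0.25 to 2.60, edgeR adjusted p = 0.116), and it ran from 0.68 to 2.21 over all 15 alternatives. It was 0.68 without the first model rat (edgeR adjusted p = 0.297). Without that rat no member met the study's thresholds, which 16% of all genes met. With the second normal rat or the third normal rat left out 1 member met them, Pik3cd, against 17.8% and 18.9% of all genes. Leaving out the third model rat instead passed Pik3cd at an adjusted p of 0.0351 in edgeR, where 19.3% of all genes passed.

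Pik3ca encodes p110α, the catalytic subunit that carries most insulin signalling. It was 26.2, 27.5 and 31.1 CPM in the normal livers, 21.6, 24.8 and 27.7 CPM in the model livers and 20.7, 23.9 and 31.6 CPM in the TA livers. All groups overlapped. The log2 fold change in Model VS Normal was -0.19 with a 95% interval from -0.67 to 0.29, so that a difference as large as that fitted for Pik3cd lay outside the interval. Pik3cb, which encodes p110β, was the more variable of the pair, at 5.98, 13.3 and 9.99 CPM in normal livers, 5.92, 4.48 and 11.6 CPM in model livers and 9.90, 12.4 and 5.52 CPM in TA livers. Its log2 fold change in Model VS Normal was -0.41, and the 95% interval from -1.44 to 0.62 was wide.

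The make-up of the class I catalytic transcripts was compared within each liver, where library size and TMM scaling cancel. Pik3cd and Pik3cg together made up a ratio of 0.703, 0.386 and 0.758 to Pik3ca and Pik3cb (summed FPKM) in the normal livers. The same ratio was 3.34, 1.54 and 0.950 in the model livers and 0.966, 0.711 and 0.876 in the TA livers. Every model liver lay above every normal liver, but the third model rat lay below the first TA rat. As a mean log2 ratio this was -0.76 ± 0.53 for normal livers, 0.76 ± 0.92 for model livers and -0.24 ± 0.23 for TA livers (SD, n = 3). The difference in Model VS Normal was 1.52 (p = 0.1 in a two-sided exact permutation test, below which 3 against 3 cannot go, and 0.3 adjusted over the 15 ratio tests), and 1.03 without the first model rat. Pik3cd alone took 34.1%, 23.7% and 39.3% of the catalytic FPKM in the normal livers, 64.8%, 54.2% and 42.2% in the model livers and 42.2%, 36.6% and 42.5% in the TA livers.

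**Figure D2:**
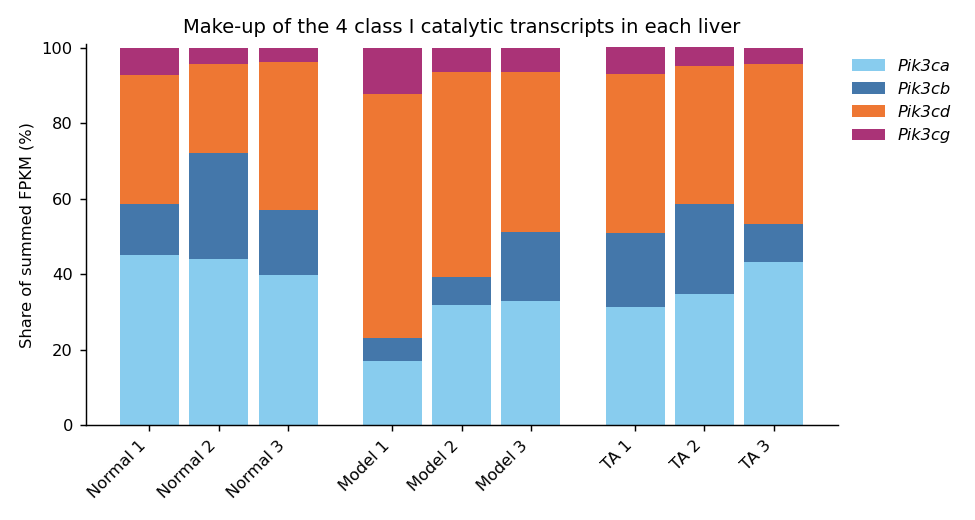
Share of each class I catalytic gene in the summed FPKM of the 4 genes (percent, stacked) in each of the 9 livers. Pik3cd takes 64.8% in the first model rat and 23.7% in the second normal rat, its highest and lowest share, and Pik3cg is the smallest share in 8 of 9 livers.

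Pan-leukocyte markers moved with the leukocyte isoforms. Of the 10 pan-leukocyte markers listed (Ptprc, Cd53, Laptm5, Coro1a, Lcp1, Arhgdib, Cd37, Ptpn6, Vav1 and Was), 8 were higher in the model at the study's thresholds, 3 of them at an edgeR adjusted p under 0.05, and the median log2 fold change of the 10 was 1.70. Without the first model rat these were 6 and 1.13. Their summed TMM-scaled FPKM was 81.8 to 129 in normal livers, 487, 215 and 212 in the model livers and 108 to 162 in TA livers. Ptprc, which encodes the leukocyte antigen CD45, was 19.0 to 29.9 CPM in normal livers, 38.2 to 65.8 CPM in model livers and 21.8 to 32.8 CPM in TA livers. Spi1, which encodes PU.1, was 111 CPM in the first model rat and 12.2 to 26.7 CPM in the other 8. The list of monocyte and macrophage markers was mixed, with 5 of 11 tested higher and 2 lower at the study's thresholds in Model VS Normal (3 and 4 without the first model rat). The higher ones were Lyz2 (3.21), Cybb (2.17), Cd68 (2.16), Itgax (2.14) and Adgre1 (1.01). The lower ones were Marco (-2.17) and Cd5l (-1.14), markers of resident macrophages. Without passing, Clec4f, the Kupffer cell lectin, differed by -1.50, Vsig4 by -0.71, Cd163 by 0.59 and Spi1 by 1.29. Of the lymphocyte markers, 11 were tested in Model VS Normal, with 1 higher and 0 lower at the study's thresholds and a median of 0.61. In TA VS Model 12 were tested, with 0 higher and 0 lower and a median of -0.50. In whole liver, more leukocytes and more of a transcript per cell cannot be told apart.

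The mean log2 TMM-scaled FPKM of Pik3cd and Pik3cg ran from -0.04 in the second normal rat to 2.49 in the first model rat. Set against the mean of the 10 markers in the same liver, where the scaling cancels, the difference ran from -2.88 to -2.39 over the 9 livers. Its mean was -2.59 ± 0.17 for normal, -2.81 ± 0.07 for model and -2.69 ± 0.16 for TA livers (SD, n = 3). Model livers were thus slightly lower in Pik3cd and Pik3cg per marker, by -0.22 on the log2 scale without overlap (exact permutation test, two-sided p = 0.1, adjusted p = 0.3). The part of leukocyte number in the levels of Pik3cd and Pik3cg was not tested.

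**Figure D3:**
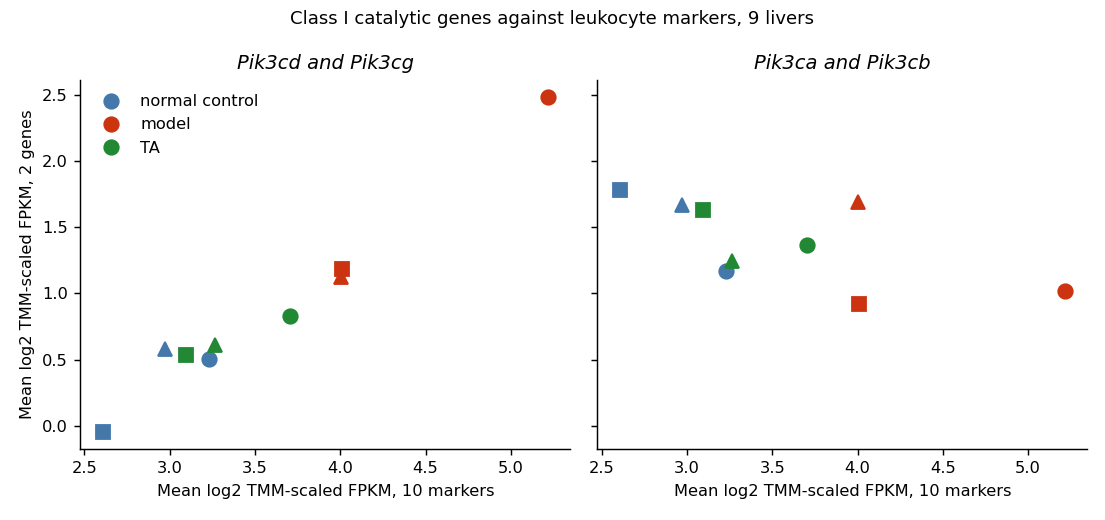
Mean log2 TMM-scaled FPKM of 10 pan-leukocyte markers (horizontal axis) against the same mean of Pik3cd and Pik3cg (left) or Pik3ca and Pik3cb (right) in 9 livers, coloured by group, with circles, squares and triangles for replicates 1, 2 and 3. Pik3cd and Pik3cg range from -0.04 to 2.49 and lie higher where the markers do, and Pik3ca and Pik3cb range from 0.92 to 1.78 with the first model rat at 1.02.

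Pik3r1 encodes p85α, which stabilizes the catalytic subunits p110α, p110β and p110δ and holds them inactive until a receptor is engaged. It was 21.0, 41.6 and 43.0 CPM in the normal livers, 26.8, 24.4 and 28.1 CPM in the model livers and 67.4, 41.8 and 30.1 CPM in the TA livers. The model livers were tightly grouped and below all TA livers, while the first normal rat was the lowest of the 9. The log2 fold change in Model VS Normal was -0.41 (95% interval -1.09 to 0.28, edgeR adjusted p = 0.388). Relative to the 4 catalytic genes in the same liver, the Pik3r1 ratio was 0.556, 1.03 and 0.849 in normal livers, 0.323, 0.482 and 0.514 in model livers and 1.56, 0.935 and 0.636 in TA livers. Model livers were below every normal and every TA liver in this ratio, by -0.86 in Model VS Normal and with TA higher by 1.18 in TA VS Model on the log2 scale (exact permutation test, two-sided p = 0.1 and adjusted p = 0.3 for both). The Pik3cd share enters the denominator of this ratio, and so does Pik3cg, whose product p110γ is not a partner of p85α.

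Akt1 was 87.0, 67.9 and 65.9 CPM in the normal livers, 152, 97.5 and 72.9 CPM in the model livers and 84.7, 73.2 and 78.2 CPM in the TA livers. The first and the second model rat were the highest of the 9, and the third model rat lay inside the normal and below the TA range. The log2 fold change in Model VS Normal was 0.55 (95% interval -0.20 to 1.30, edgeR adjusted p = 0.295), and 0.19 without the first model rat. Akt2 was 42.3, 47.6 and 27.8 CPM in normal livers, 34.3, 23.6 and 39.1 CPM in model livers and 46.3, 50.8 and 37.8 CPM in TA livers. Its log2 fold change in Model VS Normal was -0.28 (95% interval -0.95 to 0.39), with overlapping groups. The ratio of Akt1 to Akt2 in the same liver was 1.69, 1.17 and 1.95 in normal livers, 3.64, 3.39 and 1.53 in model livers and 1.50, 1.18 and 1.70 in TA livers, so that 2 of the 3 model rats stood above all other livers. The exact permutation test gave a two-sided p of 0.3 for Model VS Normal and 0.2 for TA VS Model (0.375 and 0.3 adjusted).

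Mtor, the kinase shared by mTOR complexes 1 and 2, was among the steadiest members. It was 29.9, 30.8 and 35.8 CPM in normal livers, 24.4, 29.9 and 34.5 CPM in model livers and 36.3, 31.3 and 37.2 CPM in TA livers. Rps6kb1 was 17.5, 22.7 and 20.3 CPM in normal livers, 15.8, 19.3 and 20.2 CPM in model livers and 22.4, 22.2 and 24.0 CPM in TA livers. The log2 fold changes in Model VS Normal were -0.12 for Mtor (95% interval -0.62 to 0.39) and -0.13 for Rps6kb1 (95% interval -0.64 to 0.39), so that a difference of 1 in either direction on this scale lay outside both intervals. The first model rat was the lowest of the 9 livers for both genes. With scaling by library totals alone, the median of all genes moved from 0.02 to 0.65. Pik3ca, Pik3cb, Pik3r1, Akt2, Mtor and Rps6kb1 then changed sign, to between 0.16 and 0.47, all below that median. Akt1 stood at 1.27 and met the study's thresholds beside Pik3cd and Pik3cg, where 31.1% of all genes met them.

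TA VS Model asked what differed in fibrotic livers after TA. It shares the 3 model livers with Model VS Normal, so that a high or low model rat acts on both in opposite directions. Pik3cd and Pik3cg were lower in every TA liver than in any model liver, and Pik3r1 and Rps6kb1 were higher in every TA liver. No member passed the adjusted threshold in edgeR, which 0% of the 12781 genes tested passed. None passed in DESeq2 or limma voom either, where 4.23% and 1.32% of all genes did. At an unadjusted p under 0.05 edgeR gave 3 of 9 (Pik3cd, Pik3cg and Pik3r1), against 15.6% of all genes. DESeq2 gave 3, against 19.5% of all genes, and limma voom 4, against 27.2%. By the study's thresholds 1 of 9 passed in edgeR, Pik3cg, against 12.3% of all genes in either direction and 10.2% lower in TA. In limma voom the 1 member that met them was Pik3r1, against 13.4% of all genes. Groups without overlap were seen for 4 of 9 members and 23.1% of all genes.

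The log2 fold change of Pik3cd in TA VS Model was -0.93 (SE 0.346, 95% interval -1.73 to -0.13, edgeR adjusted p = 0.282). That of Pik3cg was -1.23 (SE 0.504, 95% interval -2.39 to -0.06, edgeR adjusted p = 0.307), and it ran from -1.85 to -0.46 over all 15 alternatives. Both shrank without the first model rat, to -0.45 and -0.49. Without that rat, the first TA rat or the second TA rat no member met the study's thresholds, which 6.13%, 10.4% and 7.34% of all genes met. Without the third TA rat the 1 member that met them was Pik3r1, against 9.5% of all genes. Without the second or the third model rat Pik3cd and Pik3cg both met them, against 12.2% and 21.2% of all genes. The pan-leukocyte markers were lower as well, 7 of 10 at the study's thresholds, with a median of -1.22 (0 of 10 and -0.68 without the first model rat), and Pik3cd and Pik3cg per marker differed by 0.12 with overlapping groups (exact permutation test, two-sided p = 0.3).

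Pik3r1 had the highest fitted value of the 9 in TA VS Model, 0.81 on the log2 scale (SE 0.316, 95% interval 0.08 to 1.55, edgeR adjusted p = 0.293), without passing the test. The value did not rest on the first model rat, without which it was 0.83. It ranged from 0.45 to 1.06 as single rats were left out. Rps6kb1 differed by 0.31 (95% interval -0.18 to 0.80) and Mtor by 0.24 (95% interval -0.27 to 0.76), both with the TA group higher. Akt1 was lower by -0.45 (95% interval -1.20 to 0.30, and -0.10 without the first model rat), Akt2 higher by 0.48 (95% interval -0.13 to 1.09) and Pik3cb higher by 0.34 (95% interval -0.71 to 1.39), all with overlapping groups. Pik3ca differed by 0.04 (95% interval -0.52 to 0.60). With library totals the median of all genes was -0.48, and Pik3ca, Pik3cb, Akt2, Mtor and Rps6kb1 changed sign, while Pik3r1 remained higher in TA and Pik3cd, Pik3cg and Akt1 remained lower.

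In TA VS Normal, which shares livers with both other comparisons, the 9 members lay between -0.19 and 0.37 on the log2 scale. None passed at an adjusted p under 0.05 in edgeR, DESeq2 or limma voom. Of the 12179 genes tested, 0.263% passed in edgeR, 2.96% in DESeq2 and 1.03% in limma voom. The count at an unadjusted p under 0.05 was 0 in edgeR and DESeq2, against 9.43% and 10.5% of all genes. In limma voom 1 member had such a p, against 15% of all genes. By the study's thresholds the count in edgeR was 0 of 9 against 5.25%, and groups without overlap were 0 of 9 against 14.9%. Pik3r1 differed by 0.37 (95% interval -0.46 to 1.20), Pik3cd by 0.34 (95% interval -0.30 to 0.98), Pik3cg by 0.17 (95% interval -0.63 to 0.97) and Akt1 by 0.07 (95% interval -0.37 to 0.51). The intervals do not show that the levels were equal. They leave room for a Pik3cd level in TA livers that is higher by up to 0.98 on the log2 scale.

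**Figure D4:**
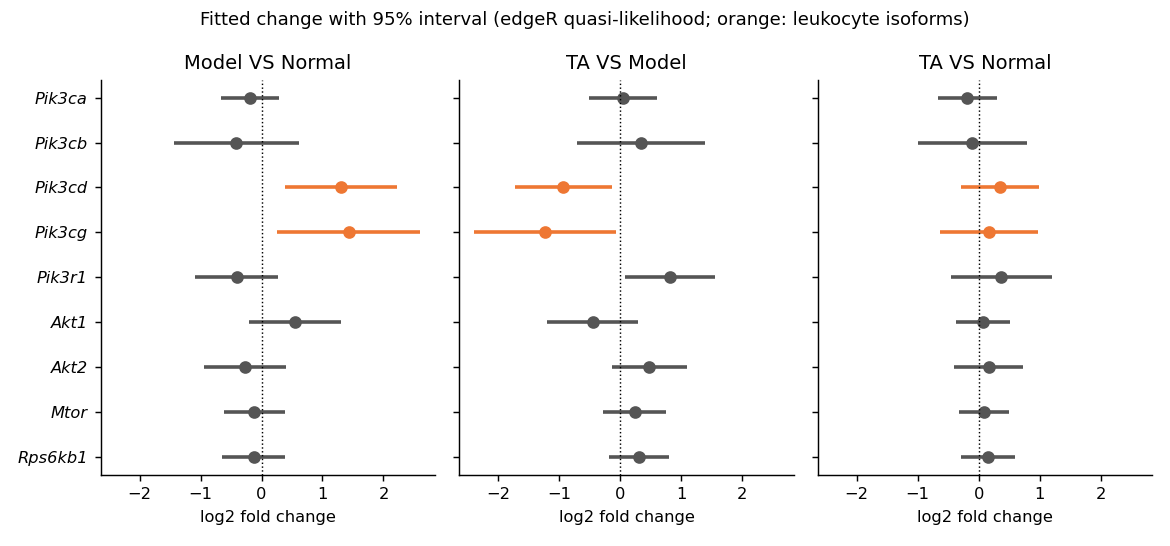
Fitted log2 fold change (points) with 95% intervals (lines, edgeR quasi-likelihood fit) of the 9 genes in Model VS Normal, TA VS Model and TA VS Normal, the leukocyte isoforms in orange and the dotted line at 0. Pik3cd and Pik3cg lie at 1.31 and 1.43 in the first panel, at -0.93 and -1.23 in the second, and at 0.34 and 0.17 in the third.

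The genes with the pattern most like that of Pik3cd over the 9 livers were Card19, Spats2 and Ptpn7, whose centred log2 CPM differed from it by a root mean square of 0.149, 0.166 and 0.179 among 10940 genes. For Pik3cg they were Arhgap18 (0.152), Mob3a (0.160) and Rac2 (0.168), and for Akt1 they were Rplp0 (0.0692), Arpc5 (0.0846) and Rpl6 (0.0964). Among the members, Pik3cd differed from Pik3cg by 0.367 and from Akt1 by 0.437, but from Pik3ca by 0.748 and from Pik3cb by 1.04. These likenesses are descriptions over 9 livers in which the first model rat carries much of the spread.

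Around the 9 genes, 83 further genes of the pathway were listed, of which 81 were matched and 79 tested in Model VS Normal. There, 4 rose and 1 fell at an edgeR adjusted p under 0.05, against 6.86% and 1.01% of all genes. By the study's thresholds 12 were higher and 3 lower, against 16.6% and 5.55% of all genes. The median log2 fold change was -0.03 against 0.02 over all genes. Among regulatory and adaptor subunits, Pik3ip1, a membrane protein that restrains PI3K, rose from 1.83, 2.06 and 1.26 CPM to 15.4, 13.8 and 7.43 CPM (log2 fold change 2.82, edgeR adjusted p = 0.0122). Pik3r5, the p101 partner of p110γ, was 3.67 to 5.73 CPM in normal livers and 26.0, 9.28 and 9.83 CPM in model livers, a difference of 1.73 (edgeR adjusted p = 0.0595, and 1.05 without the first model rat). Pik3r2, the p85β counterpart of Pik3r1, differed by -0.10.

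Of the receptors, Pdgfra and Pdgfrb, the PDGF receptors of mesenchymal cells, rose by 2.36 and 2.71 (edgeR adjusted p = 0.00925 and 0.0266). Pdgfra was 12.4, 15.6 and 11.2 CPM in normal livers and 72.4, 49.4 and 79.8 CPM in model livers. Pdgfrb was 26.1, 15.2 and 28.0 CPM and then 269, 96.1 and 85.7 CPM, and without the first model rat its log2 fold change was 1.97. Pdgfrb also belongs to the list of 12 stellate cell and myofibroblast markers, of which 11 were measured and 9 were higher in the model at the study's thresholds, and the summed TMM-scaled FPKM of that list was 65.4 to 83.1 in normal livers and 2930, 310 and 347 in the model livers. Without the first model rat 8 were higher. The part of those cells in the receptor levels was not tested. Kdr, the VEGF receptor of endothelium, was 51.2 to 61.5 CPM in normal and 21.5 to 36.2 CPM in model livers, a difference of -1.01 (edgeR adjusted p = 0.0503). The list of endothelial markers, which does not hold Kdr, did not share this direction. In Model VS Normal 3 of 7 tested were higher and 0 lower at the study's thresholds, with a median log2 fold change of 0.33.

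Among the phosphatases, Inpp5d, which encodes the haematopoietic PIP3 phosphatase SHIP1, rose from 9.01 to 12.8 CPM in normal livers to 19.9 to 41.9 CPM in model livers, by 1.41 on the log2 scale (edgeR adjusted p = 0.0447). Without the first model rat it was 0.99 with an edgeR adjusted p of 0.0523. Phlpp1, which encodes an AKT phosphatase, was lower without overlap, by -0.87 (edgeR adjusted p = 0.0572, and -0.77 without the first model rat). Phlpp1 passed the adjusted threshold in DESeq2 and in limma voom, where 20.8% and 27% of all genes passed. Of the 7 phosphatase genes tested, 3 had a log2 fold change above 0. In TA VS Model Phlpp1 was higher by 0.80 (edgeR adjusted p = 0.252).

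None of the 8 measured subunits of the mTOR complexes passed at an adjusted p under 0.05 in edgeR in any comparison, and 1, Prr5l of complex 2, was higher in Model VS Normal by the study's thresholds (1.29, with overlap). In the same comparison Akt1s1, which encodes the complex 1 inhibitor PRAS40, differed by -0.61 without overlap (edgeR adjusted p = 0.121). Akt1s1 passed the adjusted threshold in DESeq2 and in limma voom, where 20.8% and 27% of all genes passed. Deptor, an inhibitor of both complexes, differed by -0.74 with overlap (edgeR adjusted p = 0.427). In Model VS Normal, Rptor, the defining subunit of mTOR complex 1, differed by -0.26 and Rictor, that of complex 2, by 0.64, Tsc2, which holds complex 1 in check, by -0.15 and Rps6kb2, which encodes S6K2, by -0.60, and none of these 4 had an edgeR adjusted p below 0.274. None of the 9 translation and autophagy substrates passed at the study's thresholds in any comparison in edgeR with all samples and TMM scaling. None of the 4 genes of the TSC complex and Rheb did either. With library totals Tfeb met them in Model VS Normal and Pdcd4 in TA VS Model, where 31.1% and 19.1% of all genes did. Of the 13 measured inputs to mTOR complex 1, Sesn2, a stress-induced inhibitor of the complex, fell from 84.7, 76.0 and 142 CPM to 23.7, 24.9 and 40.0 CPM (log2 fold change -1.77, edgeR adjusted p = 0.0283), and its groups did not overlap. Of the same list, Ddit4, which encodes the complex 1 inhibitor REDD1, was higher by 2.04 at the study's thresholds (4.87 to 8.22 CPM in normal and 55.7, 13.6 and 7.99 CPM in model livers, with overlap, edgeR adjusted p = 0.102, and 0.76 without the first model rat). Lamtor2, a Ragulator subunit that complex 1 needs at the lysosome, was lower by -1.18 at these thresholds (edgeR adjusted p = 0.0661). Without the first model rat, Pdgfra, Pdgfrb, Pik3ip1 and Sesn2 still passed, whereas without any 1 of the 3 normal rats no pathway gene did, and without the third model rat 19 did. Those counts follow all genes, of which 0% to 0.385% passed without a normal rat and 19.3% without the third model rat. DESeq2 passed 17 of the 79 (21.5%, against 20.8% of all genes) and limma voom 21 (26.6%, against 27%).

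In TA VS Model, 0 of the 79 pathway genes tested passed at an adjusted p under 0.05 in edgeR, with 10 (12.7%) at an unadjusted p under 0.05, against 15.6% of all genes. At the adjusted threshold DESeq2 passed 3 (3.8%, against 4.23% of all genes) and limma voom 1 (1.27%, against 1.32%). At the study's thresholds 2 were higher and 5 lower in TA, against 2.11% and 10.2% of all genes. The higher ones were Sesn2, at 59.2, 57.0 and 75.0 CPM in TA livers (1.11), and Kdr, at 52.9, 47.5 and 69.8 CPM (1.01). The lower ones were Ddit4 (-2.23), Pik3r5 (-1.82), Pik3c2b (-1.50), a class II PI3K, Pdgfrb (-1.34) and Pik3ip1 (-1.18). Ddit4 was 55.7, 13.6 and 7.99 CPM in model livers and 8.97, 5.08 and 2.46 CPM in TA livers, with overlap, and without the first model rat it differed by -0.95. Without that rat Pik3c2b differed by -0.86, Pdgfrb by -0.60 and Pik3ip1 by -0.96. Sesn2 gave 0.98 and Kdr 0.99 there, at unadjusted edgeR p of 0.0104 and 0.0145, and of the 7 genes Pik3r5 alone then still met both thresholds, at -1.15. Leaving out the third model rat gave 19 genes at these thresholds, which 21.2% of all genes then met.

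In TA VS Normal, 0 of 77 pathway genes passed at an adjusted p under 0.05 in edgeR, where 0.23% of all genes passed as higher and 0.0328% as lower in TA, with 6 (7.79%, against 9.43% of all genes) at an unadjusted p under 0.05. DESeq2 passed 3 (3.9%, against 2.96% of all genes) and limma voom 2 (2.6%, against 1.03%). At the study's thresholds 3 were higher in TA and 0 lower, against 4.24% and 1.02% of all genes: Pdgfra by 1.82, Pik3ip1 by 1.61 and Pdgfrb by 1.34. Their TA levels were 70.1, 35.9 and 36.0 CPM for Pdgfra, 8.33, 3.21 and 4.55 CPM for Pik3ip1 and 66.9, 53.6 and 58.1 CPM for Pdgfrb, each above every normal liver. An alternative fit used the replicate number as a block, a pairing that no label states and that was read from these same data. There 2 genes passed, where 1.67% of all genes did, Pdgfra (1.76, edgeR adjusted p = 0.0253) and Pdgfrb (1.38, edgeR adjusted p = 0.0166). In the main fit without a block their edgeR adjusted p was 0.0672 and 0.0949.

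**Figure D5:**
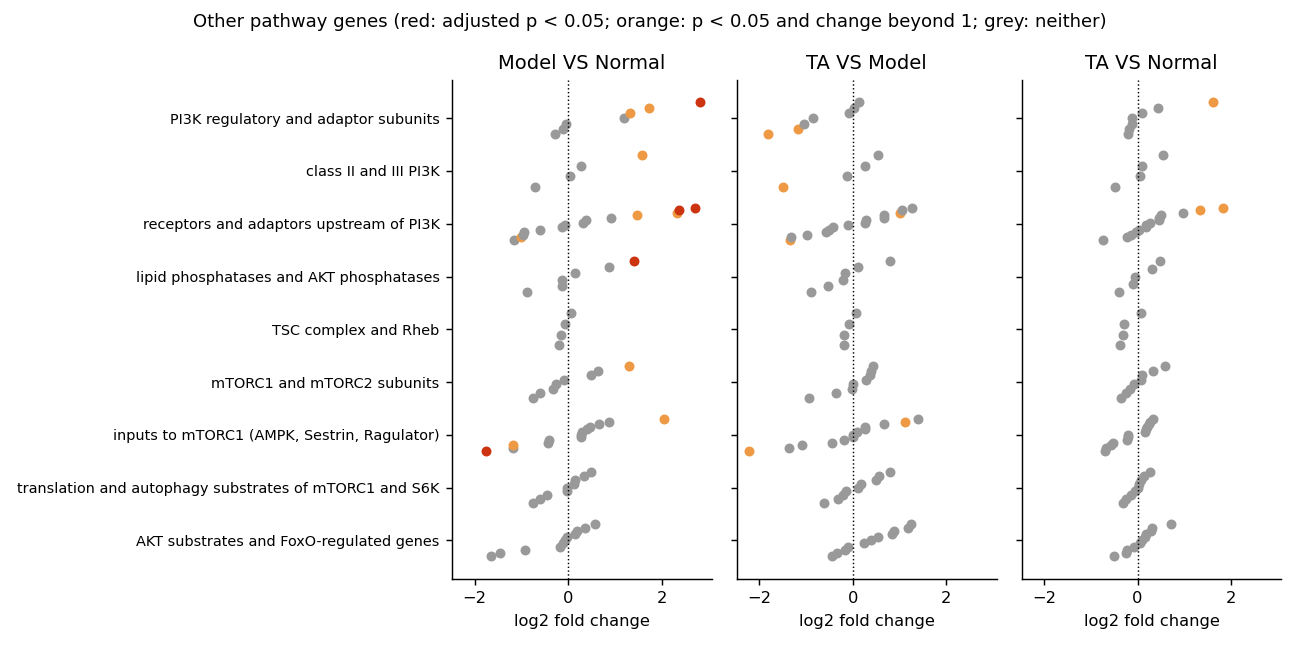
Fitted log2 fold change of other pathway genes tested, 1 point per gene, for 9 of the lists (vertical axis) in the 3 comparisons. Red marks an edgeR adjusted p under 0.05, orange an unadjusted p under 0.05 with a change beyond 1, and grey neither. There are 5 red points in Model VS Normal and 0 in the other panels, and the points of the TSC list and of the translation list are all grey.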

How the data were processed

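The authors sequenced poly(A)-selected RNA of 9 rat livers (paired-end, NEBNext Ultra kit). Reads were trimmed with Trimmomatic and Cutadapt, mapped with STAR and counted with HTSeq-count. The sources name a human or a mouse genome (versions of the tools are not given in the sources used here), while the gene symbols are those of rat, and 90.9% matched rat RefSeq. The read counts the authors deposited are raw, in 2 tables that share the model group, whose values were the same in both. The FPKM values deposited by the authors are scaled to gene length and to the counted reads of the library. The tables also hold the authors' normalized values, log2 fold changes and p-values, which were not used.

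Groups came from the sample labels. Counts were tested with edgeR 4.0.16 (quasi-likelihood, TMM, filterByExpr) on the groups compared only, with Benjamini-Hochberg adjustment over all genes tested, in R 4.3.3. Genes were called at an adjusted p under 0.05, and by the study's thresholds. Standard errors were taken as the fitted change over the root of its F statistic. The pipeline was tested on simulated data. CPM and TMM-scaled FPKM used TMM factors over all 9 libraries, and "without overlap" refers to these CPM. Ratios of FPKM within a liver were compared by exact permutation tests (5 ratios in 3 comparisons, 15 tests). Nothing states whether the rats of a group were housed or processed apart, so p-values measure the spread between these livers. Depth was 13156735 to 18090405 counts per library, and counting error is part of the spread between rats given here.

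Replicate numbers come from the labels. For TA VS Normal, deviations from the group means correlated between livers of the same number at 0.233, 0.370 and 0.452. On these values alone the numbers were taken as pairs there, since the labels state no pairing. The main fit used no block. Alternatives were DESeq2 1.42.0, limma voom 3.58.1 with sample quality weights, other scalings, filters and forms of the fit, all 9 libraries in 1 fit, the replicate block and leaving out each library.

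The 9 members and all gene lists were chosen with earlier results of these data known. Genes named are the 9 members, Pik3r2, Tsc2, Rptor, Rictor, Rps6kb2, Ptprc, Spi1, Alb, the 3 genes nearest in pattern to Pik3cd, Pik3cg and Akt1, and per comparison up to 10 listed pathway genes with the largest change at an adjusted p under 0.05, or at the study's thresholds where fewer than 3 passed. Further pathway genes (Prr5l, Akt1s1, Deptor, Lamtor2, Phlpp1, Tfeb, Pdcd4, and Pik3r5, Kdr, Ddit4 and Sesn2 in comparisons where the rule did not name them, and those in the closing observations) were named after their values were seen. The same holds for the monocyte and macrophage markers other than Spi1. A few of the listed genes are counted in the totals but are not reported here by name or drawn.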

Additional observations from a re-analysis of the deposited data

How the results depend on the processing

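Over 15 alternatives in each of 3 comparisons, 378 of the members' fitted values kept their direction and call, 5 values of Pik3cd in Model VS Normal came to pass the adjusted threshold and 22 changed sign, each at an adjusted p above 0.05. Members passing in Model VS Normal went from 0 to 1 with library totals, DESeq2, limma voom and all 9 libraries in 1 fit. Of all genes, 15.6%, 20.8%, 27% and 13.5% passed there, in that order. As single rats were left out the members passing ran from 0 to 1, and 0% to 19.3% of all genes passed. At the study's thresholds the members were 3 with library totals (Akt1 in addition), 1 with voom and 0 to 2 without single rats. The shares of all genes there were 31.1%, 23.1% and 16% to 29.8%. In TA VS Model 2 members met these thresholds with library totals and 0 to 2 without single rats, against 19.1% and 6.13% to 21.2% of all genes.

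Pathway genes passing in Model VS Normal were 13 with library totals, 17 with DESeq2, 21 with voom and 10 with all 9 libraries in 1 fit. The shares of all genes were 15.6%, 20.8%, 27% and 13.5%. Without single rats 0 to 19 pathway genes passed, and 0% to 19.3% of all genes. At the study's thresholds the pathway genes were 25 with library totals and 6 to 24 without single rats, against 31.1% and 16% to 29.8% of all genes. In TA VS Model 3 pathway genes passed with DESeq2 and 1 with voom, against 4.23% and 1.32% of all genes. At the study's thresholds they were 12 with library totals, 11 with voom and 2 to 19 without single rats. The shares of all genes there were 19.1%, 13.4% and 6.13% to 21.2%. In TA VS Normal the pathway genes passing were 3 with DESeq2, 2 with voom, 1 with no filter on low counts and 2 with the replicate block. The shares of all genes were 2.96%, 1.03%, 0.474% and 1.67%. Without single rats 0 to 1 pathway genes passed, and 0.00799% to 0.491% of all genes.

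Signs changed with library totals in Model VS Normal for Pik3ca (0.41), Pik3cb (0.16), Pik3r1 (0.22), Akt2 (0.35), Mtor (0.47) and Rps6kb1 (0.47), in TA VS Model for Pik3ca (-0.41), Pik3cb (-0.08), Akt2 (-0.0023), Mtor (-0.19) and Rps6kb1 (-0.13), and in TA VS Normal for Pik3cb (0.08). Library totals moved the median of all genes to 0.65, -0.48 and 0.18. With voom Pik3ca was -0.14 in TA VS Model and Pik3cb 0.16 in TA VS Normal. Without single rats, Pik3ca ran from -0.13 to 0.18 in TA VS Model, with -0.03 without the first model rat. In TA VS Normal Pik3cb ran from -0.38 to 0.19 (0.16 without the third TA rat), Pik3cg from -0.03 to 0.38, Pik3r1 from -0.00066 to 0.60, Akt1 from -0.01 to 0.20 and Akt2 from -0.04 to 0.33. There the log2 ratio of Akt1 to Akt2 ran from -0.33 to 0.04 (0.03 without the second TA rat), and that of Pik3r1 to the catalytic genes from -0.03 to 0.62. The cause of these shifts was not tested.

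In Model VS Normal and TA VS Model the same-numbered livers correlated at a mean of 0.0345 and 0.0595, so that the numbers were not taken as pairs. The replicate block changed no call of a member in any comparison. With 3 livers a group the exact test cannot go below 0.1, and Pik3cg rests on 36 to 79 counts in 8 of the 9 livers.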

Other observations

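Pck1, G6pc and Igfbp1, 3 genes of the list of AKT substrates and FoxO-regulated genes, were lowest in the first model rat, a description made after the values were seen. Pck1, the rate-limiting enzyme of gluconeogenesis, was 263 CPM there and 2240 to 5290 CPM in the other 8 livers. G6pc, the glucose-6-phosphatase that releases glucose, was 55.6 CPM there and 286 to 2000 CPM elsewhere. Igfbp1, an insulin-repressed binding protein of IGF, was 98.4 CPM there and 426 to 1270 CPM elsewhere. The receptor gene Insr (10.3 CPM) and the adaptor gene Irs2 (12.1 CPM) were also lowest in that rat, against 19.0 to 41.1 CPM and 25.7 to 62.6 CPM. Not every gene of the list shared this direction, and in Model VS Normal Cdkn1b differed by 0.58 without overlap (edgeR adjusted p = 0.16) and Bcl2l11 by 0.37 (edgeR adjusted p = 0.455). None of the 11 genes passed at the study's thresholds in any comparison in edgeR with all samples, TMM scaling and no replicate block. With library totals Cdkn1b and Bcl2l11 met them in Model VS Normal, where 31.1% of all genes did. In Model VS Normal Pck1 and G6pc met them with DESeq2, Pck1, G6pc and Foxo1 with limma voom, and G6pc with the replicate block. The shares of all genes there were 24.5%, 23.1% and 23%, in that order. In TA VS Model Pck1, Foxo1 and Foxo3 met them with limma voom, against 13.4% of all genes. Alb was lowest in the same liver, and the part of hepatocyte content in these levels was not tested.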
